A study of Mus musculus with 43 samples.

Results

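The genes described here are leptin and other adipokines, the hormones that fat cells secrete, together with their receptors. The rule took the entries of the deposited FPKM table whose gene name is Lep, Adipoq, Retn, Rbp4, Nampt, Cfd, Lepr, Adipor1 or Adipor2, and found 9 entries among 42349, 1 for each name. FPKM counts sequenced fragments per kilobase of transcript, scaled for the size of the library, so levels of different genes can be set side by side per length. The study compared female mice lacking the insulin receptor substrate gene Irs1 in the whole body (Irs1-/-, KO) with wild type mice (Irs1+/+, WT), each eating standard chow freely (ad libitum, AL) or held on dietary restriction (DR). Restriction began at 10 weeks of age and was raised in steps to 30%. It had lasted 12 months when brain, liver, skeletal muscle and inguinal white adipose tissue (WAT) were taken at 15 months. The 4 groups WT_AL, WT_DR, KO_AL and KO_DR in 4 tissues gave 16 group values made from 43 libraries, with 2 libraries in each WT_AL group and in the WAT group WT_DR and 3 in every other group. The table holds 1 value per group with the authors' 95% interval, and no value of a single library, so the depth per library is unknown here.

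Leptin is released by fat cells roughly in proportion to stored fat and acts mainly in the hypothalamus through the long form of its receptor Lepr to restrain feeding. Adiponectin, encoded by Adipoq, signals through the receptors Adipor1 in muscle and Adipor2 in liver and raises fatty acid oxidation and insulin sensitivity. Resistin (Retn) and complement factor D or adipsin (Cfd) are made by mouse fat cells, retinol binding protein (Rbp4) carries vitamin A from liver and fat, and Nampt makes an NAD precursor inside cells and is also secreted.

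In the GRCm38 build used by the files, Lep lies on chromosome 6 at 29060220 to 29073877 on the forward strand, Adipoq on chromosome 16 at 23146536 to 23158028, Retn on chromosome 8 at 3655770 to 3660110 and Cfd on chromosome 10 at 79890853 to 79892656. Rbp4 lies on chromosome 19 at 38116620 to 38125321, Nampt on chromosome 12 at 32820335 to 32853369, Lepr on chromosome 4 at 101717404 to 101815352, Adipor1 on chromosome 1 at 134415378 to 134433351 and Adipor2 on chromosome 6 at 119353150 to 119417704. All 9 are annotated as protein coding, and the annotation (GENCODE vM21) gives Lepr 4 protein coding transcripts, which the single value per gene cannot separate. The 120 bases before the RefSeq start (GRCm38.p6, gene strand, 5′ to 3′) are shown for Lep, which fell in 2 comparisons in muscle, and for Adipoq, Retn and Cfd, which rose there in another. Capitals mark matches on either strand to TTGCGCAA (a palindrome of the kind bound by C/EBP factors), GGGCGG (the core of an Sp1 site), CCAAT and TATAA. The Lep window is chr6:29060101-29060220, the Adipoq window chr16:23146416-23146535, the Retn window chr8:3655650-3655769 and the Cfd window chr10:79890733-79890852.
Lep: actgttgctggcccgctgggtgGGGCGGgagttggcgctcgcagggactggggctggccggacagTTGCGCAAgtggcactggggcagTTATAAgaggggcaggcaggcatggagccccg
Adipoq: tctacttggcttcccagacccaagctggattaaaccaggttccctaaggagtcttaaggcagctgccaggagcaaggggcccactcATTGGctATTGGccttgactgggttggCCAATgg
Retn: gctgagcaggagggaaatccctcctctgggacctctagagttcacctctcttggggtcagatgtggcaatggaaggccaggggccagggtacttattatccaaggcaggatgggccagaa
Cfd: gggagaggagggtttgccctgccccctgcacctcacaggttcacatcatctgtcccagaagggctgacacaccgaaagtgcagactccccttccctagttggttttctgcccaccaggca

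The Lep window held TTGCGCAA from 55 to 48 bases before the start, GGGCGG from 98 to 93 bases before it, and TATAA on both strands in overlapping positions from 32 to 27 bases before it. The Adipoq window held 3 matches to CCAAT and none of the other motifs, and the Retn and Cfd windows held none of the 4. Among the 32851 promoter windows of that length, TTGCGCAA was present in 27 (0.0822%), TATAA in 11.8%, CCAAT in 21.3% and GGGCGG in 26.5%. The Lep window was also the richest in G and C of the 4, with 69.2% against 55.0% for Adipoq, 56.7% for Retn and 59.2% for Cfd. A match describes letters only.

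Before the members, the labels and tissues were checked. Irs1 ranged from 1.62 to 6.56 FPKM over the 16 groups and was higher in the group labelled KO in 7 of 8 comparisons of genotype. By the test described below, only the rise in brain of KO_DR against WT_DR passed, with a log2 difference of 1.35 (SE 0.40). In WAT under restriction Irs1 was lower in KO_DR by 1.35 (SE 0.55), without passing. Its RNA level thus did not bear out the labels, and KO_AL and KO_DR below are names of labelled groups. Which part of Irs1 is deleted is not given in the sources used here. Each tissue was marked by its own genes: the 6 defining fat markers (Plin1, Cidec, Adrb3, Aqp7, Tusc5, Fabp4) summed to between 9100 and 14341 FPKM in WAT, 307 and 979 in muscle, 9.27 and 30.0 in liver, and 1.10 and 2.80 in brain. Among the muscle groups WT_DR stood apart, because 7 liver markers (Alb, Apoa1, Apoa2, Serpina1a, Fgb, Ahsg, Ttr) summed to 2542 FPKM there and to 20.5 in WT_AL, 47.3 in KO_AL and 107 in KO_DR muscle. Liver markers were present in WAT too, where the same 7 summed to 689 FPKM in WT_AL, 386 in WT_DR, 652 in KO_AL and 99.7 in KO_DR. WAT also held muscle markers, whose median level over 8 genes was 1.56 FPKM in WT_AL, 34.2 in WT_DR, 93.7 in KO_AL and 47.7 in KO_DR. Against WT_AL, 6 of the 8 rose in KO_AL and 4 of the 8 in WT_DR, with median log2 differences of 5.42 and 4.37, and 7 of the 8 were higher in each. By the test described below, 1.29% and 0.57% of all tested WAT entries passed in these comparisons. Myh4 (0.0699 FPKM) and Myh1 (0.757) were below 1 FPKM in WT_AL and were tested only because of the other group. The counts and medians thus depend partly on that filter. The summed levels, 525 in WT_AL, 400 in WT_DR, 1076 in KO_AL and 653 in KO_DR, were carried in WT_AL by Acta1, at 507 FPKM. The part of muscle RNA in the WAT values of the members was not tested. In bulk tissue, fewer cells of a type and less RNA per cell cannot be told apart.

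By tissue, the 9 genes fell into fat hormones and widely used genes. In WT_AL, Lep stood at 616 FPKM in WAT and 78.7 in muscle and was listed at 0 in liver and brain. Adipoq stood at 4274 in WAT, 321 in muscle and 0.259 in liver, Cfd at 4486 in WAT and 476 in muscle, and Retn at 464 in WAT, 18.3 in muscle and 0.152 in brain, with the remaining tissues listed at 0. Adipoq and Cfd were therefore the most abundant members in WAT per length, ahead of Lep, Retn and Rbp4. Differences were tested as a log2 ratio over the authors' intervals with Benjamini-Hochberg adjustment over all tested entries at an FDR of 10%, for entries that were above 0 in each group and reached 1 FPKM in either. Against muscle, 6 of the 9 members were higher in WAT, where 24.1% of all tested entries passed in either direction. These were Lep (log2 difference 2.97, SE 0.69), Adipoq (3.74, SE 0.99), Retn (4.67, SE 0.43), Cfd (3.24, SE 0.74), Rbp4 (4.46, SE 0.62) and Adipor2 (1.47, SE 0.45). Against liver, where 20.6% of all entries passed, Rbp4 was lower in WAT, with a log2 difference of -2.72 (SE 0.66), and Adipoq was higher, by 14.01 (SE 2.59). Both lost their calls where non-overlapping intervals stood in place of the test. Adipoq was tested only because of its WAT level, and Lep, Retn and Cfd, listed at 0 in liver, could not be, so the count of members that passed depends on the filter and is not read against that share. Against brain, where 26.9% passed, Retn was higher in WAT by 11.58, Rbp4 by 7.26, Adipor2 by 1.98 and Adipor1 by 1.42. Retn too was tested only because of its WAT level, and Lep, Adipoq and Cfd were listed at 0 in brain. Nampt and Lepr passed in none of the 3 contrasts.

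**Figure D1:**
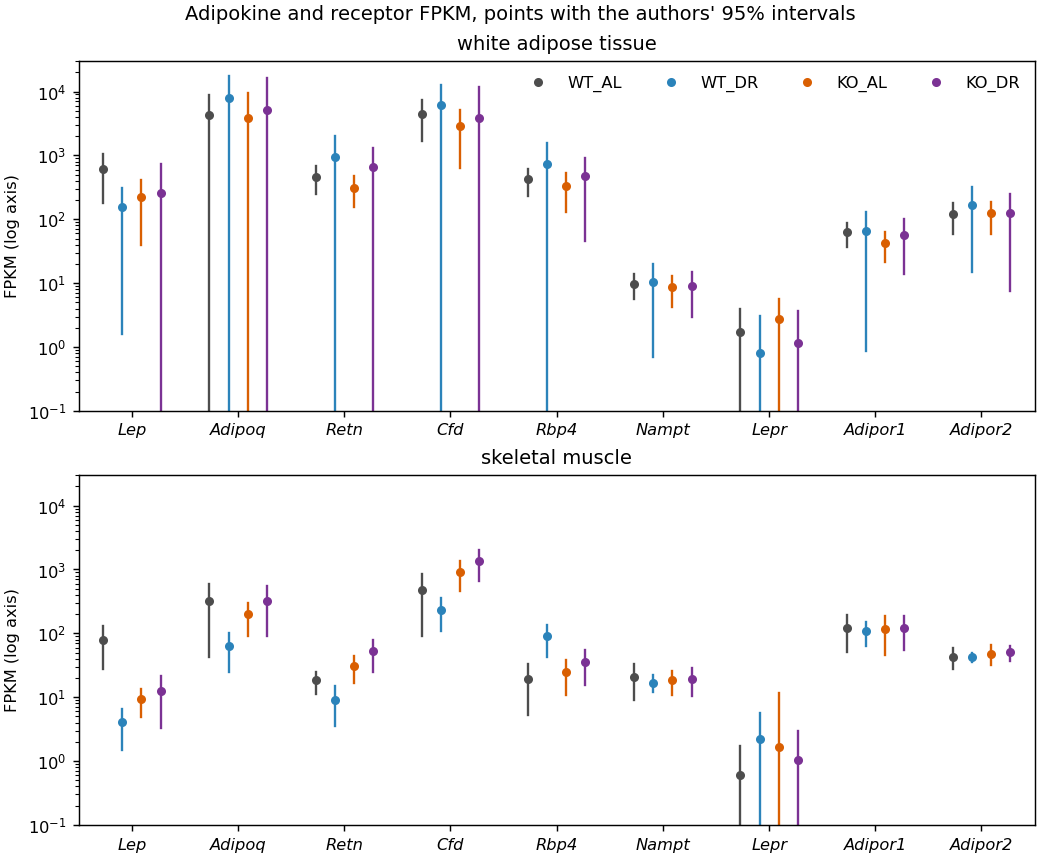
FPKM (log axis) of the 9 members in WAT (top) and skeletal muscle (bottom) for the 4 labelled groups, with points at the group value and lines for the authors' 95% interval (a line that meets the lower edge has a lower bound below 0.1). In WAT the intervals of the highest and lowest group overlapped for all 9 members, while in muscle those of Lep, Retn, Cfd and Rbp4 did not.

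Leptin in WAT was highest in WT_AL, at 616 FPKM (interval 178 to 1055), followed by 260 in KO_DR (0 to 732), 222 in KO_AL (39.1 to 405) and 158 in WT_DR (1.62 to 314). The value in WT_AL was thus 3.90 times that in WT_DR and 2.77 times that in the group labelled KO_AL, but the 4 intervals overlapped. The log2 difference from WT_AL was -1.96 (SE 0.88) for WT_DR and -1.47 (SE 0.79) for KO_AL, and neither passed the FDR of 10%. Both passed when each SD was divided by the square root of the number of libraries, with SEs of 0.62 and 0.50. The 2 comparisons share the WT_AL group. The sum of 8 macrophage markers was also highest in WT_AL WAT, at 605 FPKM, beside 222 in WT_DR, 322 in KO_AL and 248 in KO_DR. Their median level was 11.9 in WT_AL, 6.52 in WT_DR, 14.0 in KO_AL and 8.97 in KO_DR. Against WT_AL, 1 of the 8 was higher in KO_AL and 0 in WT_DR. The part of these markers in the Lep values was not tested. KO_DR differed from WT_DR by 0.72 (SE 1.49) and from KO_AL by 0.23 (SE 1.44), without passing.

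Leptin in skeletal muscle followed the same order of groups with wider steps. It stood at 78.7 FPKM in WT_AL (28.1 to 129), 12.4 in KO_DR (3.31 to 21.5), 9.24 in KO_AL (4.88 to 13.6) and 4.03 in WT_DR (1.48 to 6.58). The interval of WT_AL lay above those of the other 3 groups, which overlapped each other. Lep fell by 4.29 on the log2 scale (SE 0.65) in WT_DR, a ratio of 19.5, and by 3.09 (SE 0.58) in the group labelled KO_AL, a ratio of 8.52. Of all tested entries in muscle, 1.4% passed in the first comparison and 0.681% in the second. Both rest on WT_AL, a group of 2 libraries. The sum of 7 lymphocyte markers was highest there too, at 20.3 FPKM beside 2.17 in WT_DR, 4.04 in KO_AL and 7.41 in KO_DR, and its part was not tested. KO_DR was above WT_DR by 1.62 (SE 0.70), which did not pass, and differed from KO_AL by 0.42 (SE 0.63), which did not pass. The difference between the 2 genotype contrasts, KO_DR less WT_DR minus KO_AL less WT_AL, was 4.71 (SE 0.91) and passed, as did 0.371% of entries in muscle. In WAT the same interaction for Lep was 2.19 (SE 1.68) and did not pass, beside 0.121% of entries.

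**Figure D2:**
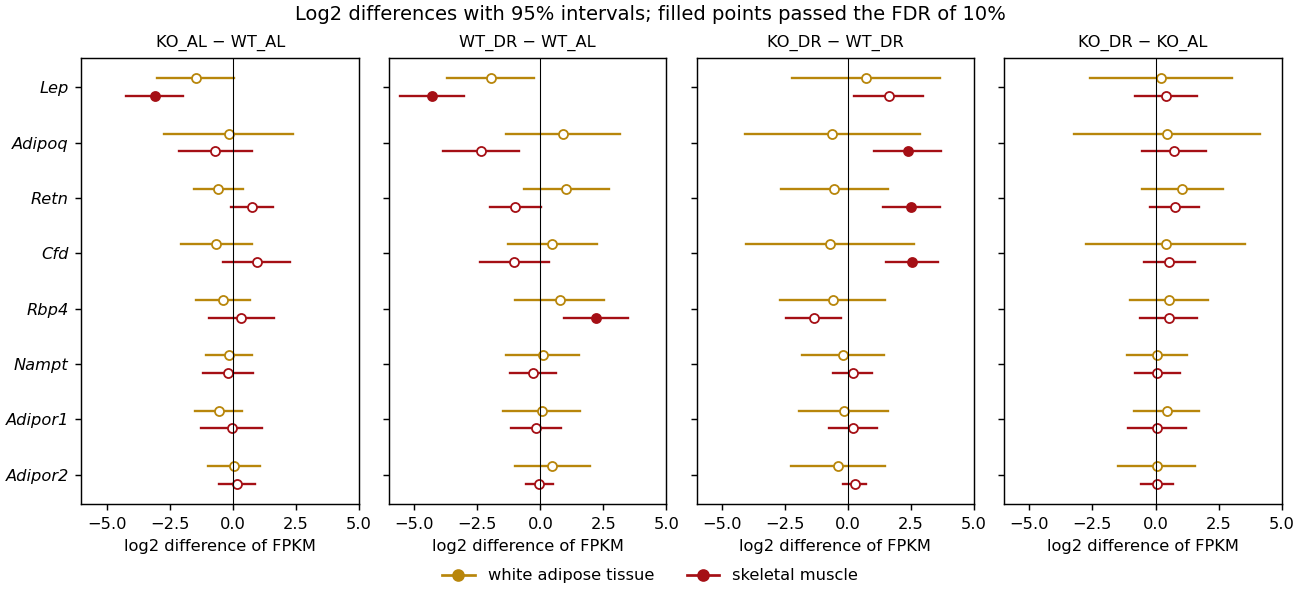
Log2 differences of FPKM (first group minus second) for 8 members in 4 comparisons, with lines for 95% intervals of 1.96 SEs and filled points for those that passed the FDR of 10%. The 6 filled points are all in muscle: Lep in both comparisons with WT_AL, Rbp4 in WT_DR against WT_AL, and Adipoq, Retn and Cfd in KO_DR against WT_DR.

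Because leptin is a fat hormone, its muscle level was set beside fat genes in the same groups. In WT_AL muscle Lep reached 12.8% of its WAT level, within the 6.11% to 19.7% of the 6 defining fat markers, none of which was at 0. In WT_DR it was 2.55% beside a marker median of 2.34%, in KO_AL 4.16% beside 15.1%, and in KO_DR 4.76% beside 11.7%. The share of Lep thus lay near the marker median in WT_DR and below every marker in KO_AL and KO_DR, whose lowest were 6.14% and 7.97%. The summed fat markers in muscle were 941 FPKM in WT_AL, 307 in WT_DR, 872 in KO_AL and 979 in KO_DR. Against WT_AL, 1 of the 6 (Tusc5) fell in WT_DR, with a median difference of -1.60 over the 6 beside -0.06 over all tested entries. None of the 6 passed in KO_AL, with a median of -0.25 beside -0.05. As a share of those summed markers, Lep was 8.37% in WT_AL, 1.31% in WT_DR, 1.06% in KO_AL and 1.27% in KO_DR muscle, and 4.30%, 1.21%, 2.44% and 2.43% in WAT in the same order. So the level of Lep per summed fat marker was highest in WT_AL in both tissues, and in KO_AL muscle it was low while the summed markers were close to those of WT_AL. That muscle sum was carried largely by Fabp4, at 654 FPKM in WT_AL and 617 in KO_AL. Plin1 (57.7 in WT_AL and 91.0 in KO_AL) and Adrb3 (7.71 and 17.3) were higher in KO_AL. Cidec (190 and 125), Tusc5 (26.2 and 18.1) and Aqp7 (4.96 and 3.72) were lower there. Genes of brown fat differed in that same contrast. Ucp1, the uncoupling protein of brown fat, stood at 66.9 FPKM in KO_AL and 0.0897 in WT_AL muscle, and Cidea, a lipid droplet protein abundant in brown fat, at 79.1 and 2.16. Of 7 brown and beige markers 4 were tested, and both of these passed, with a median of 3.06 over the 4. Ucp1 was tested only because of its KO_AL level, so the count and the median depend partly on the filter. In this comparison 0.681% of all tested muscle entries passed. Their part in the Lep values was not tested. How much of the muscle signal came from attached fat was not tested.

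**Figure D3:**
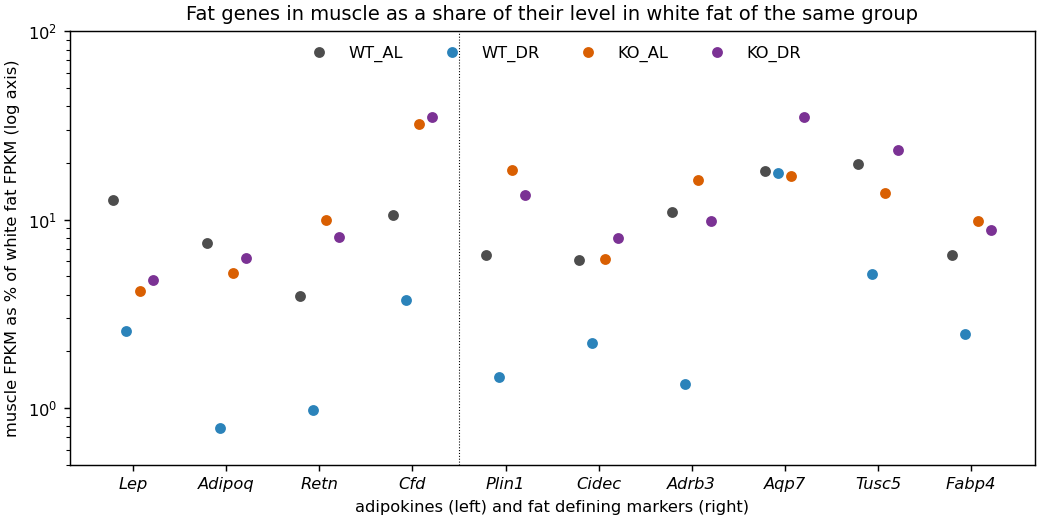
Muscle FPKM as a percentage of WAT FPKM in the same labelled group (log axis), for 4 adipokines on the left and 6 defining fat markers on the right. In WT_DR (blue) Adipoq stood at 0.786% and Retn at 0.971%, while Lep was highest in WT_AL at 12.8% and Cfd in KO_DR at 35.3%.

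Adiponectin, resistin and adipsin had another order of groups in WAT than leptin. Adipoq was 4274 FPKM in WT_AL, 7999 in WT_DR, 3809 in KO_AL and 5232 in KO_DR, each with a lower bound at 0. Retn was 464 in WT_AL (251 to 678), 945 in WT_DR (0 to 1982), 311 in KO_AL (155 to 468) and 650 in KO_DR (0 to 1312). Cfd was 4486 in WT_AL (1693 to 7279), 6207 in WT_DR (0 to 12893), 2865 in KO_AL (633 to 5097) and 3803 in KO_DR (0 to 11739). For all 3 the highest WAT value was that of WT_DR, the group in which Lep was lowest, and the lowest was that of KO_AL. WT_DR differed from WT_AL by 0.90 (SE 1.15) for Adipoq, 1.03 (SE 0.86) for Retn and 0.47 (SE 0.90) for Cfd. None passed, and the groups overlapped. Over the 9 members in WAT, none passed in any of the 4 comparisons. At an unadjusted p under 0.05 by the same Wald test, 1 of 9 (Lep) did so in WT_DR against WT_AL and 0 in each of the other 3. Over all tested WAT entries, 532 of 14925 did so in WT_DR against WT_AL. The counts were 693 of 15481 for KO_AL against WT_AL, 223 of 14820 for KO_DR against WT_DR and 627 of 15552 for KO_DR against KO_AL. The shares of all WAT entries that passed the FDR of 10% were 1.29% for KO_AL against WT_AL, 0.57% for WT_DR against WT_AL, 0.283% for KO_DR against WT_DR and 0.707% for KO_DR against KO_AL. As a share of Adipoq, Lep in WAT was 14.4% in WT_AL, 1.98% in WT_DR, 5.83% in KO_AL and 4.98% in KO_DR.

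In muscle these 3 genes were lowest in WT_DR. Adipoq was 321 FPKM in WT_AL (43.4 to 598), 62.9 in WT_DR (24.9 to 101), 198 in KO_AL (92.5 to 304) and 326 in KO_DR (91.4 to 561). Retn was 18.3 in WT_AL (11.4 to 25.1), 9.18 in WT_DR (3.53 to 14.8), 30.9 in KO_AL (16.9 to 44.9) and 52.3 in KO_DR (25.2 to 79.4). Cfd was 476 in WT_AL (90.5 to 862), 233 in WT_DR (111 to 355), 918 in KO_AL (467 to 1368) and 1341 in KO_DR (656 to 2026). Under restriction, the group labelled KO_DR was above WT_DR in all 3, and the intervals of Retn and Cfd did not overlap. Adipoq rose by 2.37 (SE 0.68), Retn by 2.51 (SE 0.58) and Cfd by 2.53 (SE 0.53), ratios of 5.18, 5.70 and 5.76. These 3 of 9 members compare with 2.23% of all tested muscle entries. Adipoq lost its call where non-overlapping intervals stood in place of the test. Fat marker genes rose in the same contrast: 7 of 19 tested adipocyte markers passed, all upward, with a median of 1.31 beside 0.04 over all entries. They included Plin1, the coat protein of lipid droplets (2.98, SE 0.57), Cidea (3.46, SE 1.04), Pparg, the master regulator of fat cell formation (2.34, SE 0.65), and the lipase Lipe (2.17, SE 0.55). The part of those fat genes in the change of the 3 adipokines was not tested. Relative to WT_AL, WT_DR differed by -2.35 (SE 0.76) for Adipoq, -0.99 (SE 0.52) for Retn and -1.03 (SE 0.70) for Cfd, none of which passed, although Adipoq passed with a pseudocount of 0.1 or 1 FPKM. KO_AL differed from WT_AL by -0.69 (SE 0.73) for Adipoq, 0.76 (SE 0.42) for Retn and 0.95 (SE 0.68) for Cfd, without passing, so that Retn and Cfd had the opposite sign to Lep in this group.

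No member passed in muscle between KO_DR and KO_AL, where 0.5% of entries did. By the Wald test, 0 of 29 tested pairs of member and tissue had an unadjusted p under 0.05 in this comparison. Over all tested entries, 282 of 14008 did in muscle, 627 of 15552 in WAT, 394 of 13747 in liver and 385 of 15349 in brain. The 3 fat hormones differed there by 0.72 (SE 0.65) for Adipoq, 0.76 (SE 0.50) for Retn and 0.55 (SE 0.51) for Cfd. Their genotype by diet interaction in muscle was 3.07 (SE 1.00) for Adipoq, 1.75 (SE 0.72) for Retn and 1.58 (SE 0.86) for Cfd, and none passed at the FDR of 10%.

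Among the secreted members, only Rbp4 was highest in liver. Of the receptors, Lepr was also highest there in every group, at a low level and with overlapping intervals. In liver it stood at 2813 FPKM in WT_AL (566 to 5061), 3744 in WT_DR (785 to 6703), 5197 in KO_AL (1221 to 9172) and 5392 in KO_DR (1245 to 9538). The groups overlapped, and no comparison passed. In muscle Rbp4 was 19.4 in WT_AL (5.35 to 33.4), 90.3 in WT_DR (43.1 to 138), 24.6 in KO_AL (10.9 to 38.4) and 35.4 in KO_DR (15.5 to 55.4). WT_DR was highest there, and its interval lay above those of WT_AL and KO_AL. Rbp4 rose by 2.22 (SE 0.64) in WT_DR against WT_AL, while KO_DR against WT_DR gave -1.35 (SE 0.55), which did not pass. Liver markers moved with it: all 7 rose in WT_DR muscle, with a median of 6.89, and all 7 fell in KO_DR against WT_DR, with a median of -4.24. The shares of all tested muscle entries that passed were 1.4% and 2.23%. Fgb and Serpina1a in WT_AL, and Fgb in KO_DR, were below 1 FPKM, so they were tested only because of WT_DR. In WT_DR muscle Rbp4 was at 2.41% of its liver level, between the 0.996% and 3.05% of the 7 markers. Their median was 1.75%. In the other muscle groups Rbp4 was at 0.474% to 0.689% of its liver level and the median marker at 0.0321% to 0.0829%. The part of liver RNA in the rise of Rbp4 was not tested. In WAT Rbp4 was 427 in WT_AL, 722 in WT_DR, 329 in KO_AL and 473 in KO_DR, with overlapping intervals and no call. WAT also held liver markers, and the part of liver RNA in these Rbp4 values was not tested. In brain Rbp4 ranged from 2.79 to 7.27 FPKM.

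Nampt had the narrowest range over groups among the secreted members in WAT and muscle. In muscle it stood at 20.8 FPKM in WT_AL, 17.0 in WT_DR, 18.4 in KO_AL and 19.3 in KO_DR, and in WAT at 9.71, 10.3, 8.71 and 8.99 in the same order. The highest group was 1.22 times the lowest in muscle and 1.19 times in WAT. In liver it was 8.65 in WT_AL, 10.6 in WT_DR, 8.57 in KO_AL and 15.5 in KO_DR. The liver difference between KO_DR and KO_AL was 0.86 (SE 0.49), with a 95% interval from -0.10 to 1.82, and did not pass. In brain Nampt ranged from 4.56 to 7.80.

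**Figure D4:**
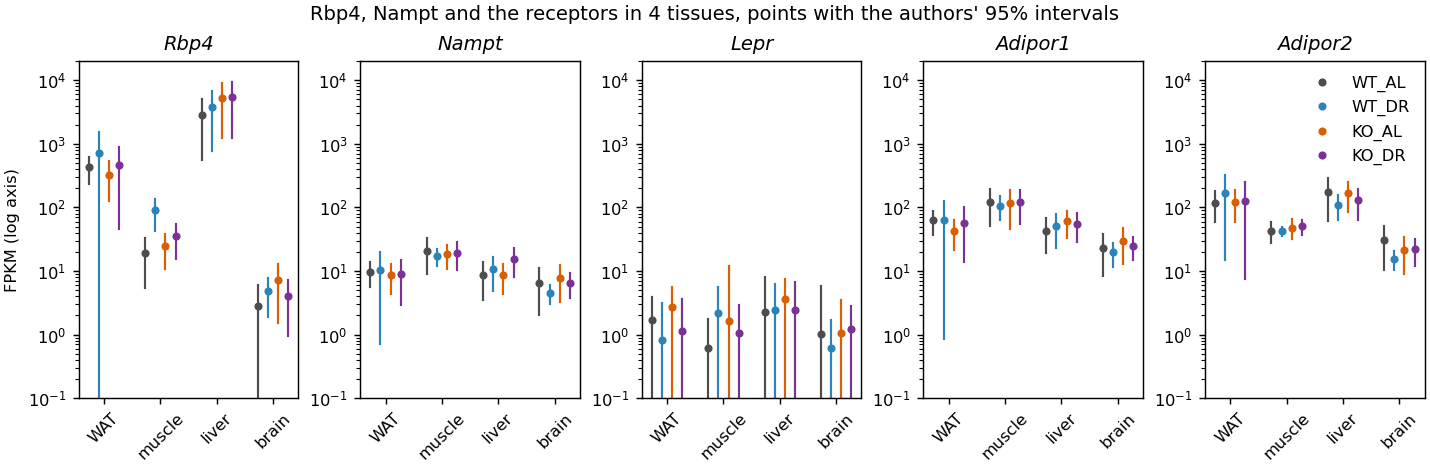
FPKM (log axis) of Rbp4, Nampt and the receptors Lepr, Adipor1 and Adipor2 in WAT, muscle, liver and brain, with points at the group value and lines for the authors' 95% interval. Rbp4 stood between 2813 and 5392 in liver, Adipor1 was highest in muscle in all 4 groups, and every lower bound of Lepr was at 0.

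The receptors were ordered by tissue, and none passed between groups within a tissue. Adipor1, the adiponectin receptor of muscle, stood at 107 to 123 FPKM in muscle, 42.3 to 64.6 in WAT, 43.3 to 60.5 in liver and 19.6 to 29.9 in brain. Adipor2, the receptor of liver, stood at 111 to 177 in liver, 120 to 166 in WAT, 42.2 to 50.5 in muscle and 15.7 to 30.3 in brain. Muscle was thus the tissue with the highest Adipor1, and liver or WAT that with the highest Adipor2, though in WT_AL the intervals of neighbouring tissues in the order overlapped for both genes. In WT_AL muscle, Adipor1 exceeded its WAT level by less than the threshold allowed (WAT less muscle -0.96, SE 0.52). The muscle values of Adipor2 were the most tightly bounded of all members, with SDs of 7.80% to 17.5% of the FPKM. In WT_DR against WT_AL its muscle difference was -0.04 (SE 0.28), with a 95% interval from -0.58 to 0.51, which leaves out changes larger than about that size. In liver Adipor2 was 177 in WT_AL, 111 in WT_DR, 166 in KO_AL and 131 in KO_DR, and the difference of WT_DR from WT_AL was -0.67 (SE 0.56).

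Lepr was the lowest of the receptors, between 0.608 and 3.62 FPKM over the 16 groups. In WAT it was 1.69 in WT_AL, 0.813 in WT_DR, 2.71 in KO_AL and 1.14 in KO_DR. In muscle it was 0.608, 2.20, 1.65 and 1.05, in liver 2.28, 2.41, 3.62 and 2.41, and in brain 1.02, 0.625, 1.05 and 1.24 in the same order. All of its intervals reached 0. Their upper bounds allowed up to 11.8 FPKM in KO_AL muscle, so a change of Lepr was not detectable at this precision.

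In liver and brain no member passed in any of the 4 comparisons or in the interaction. Lep there was at most 0.0214 FPKM, Adipoq at most 0.904, Retn at most 0.426 and Cfd at most 1.10, and 4 of these 16 values in liver and 5 of 16 in brain were listed at 0. The tested members numbered 5 or 6 in liver and 5 in brain, and 0 had an unadjusted p under 0.05 by the Wald test. Among all tested entries, between 147 and 394 of 13539 to 13956 did in liver, depending on the comparison. In brain, between 277 and 1145 of 15164 to 15655 did. The shares of all liver entries that passed were 0.316% for KO_AL against WT_AL, 0.236% for WT_DR against WT_AL, 0.288% for KO_DR against WT_DR, 0.611% for KO_DR against KO_AL and 0.086% for the interaction. In brain they were 0.203%, 0.224%, 1.16%, 0.365% and 0.396% in the same order.

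For the pathways around these hormones, counts are to be read beside the 0.283% to 2.23% of all WAT and muscle entries that passed in the 4 comparisons, and 0 or 1 passing gene in a list of this size is no result about the list. Of 14 genes of leptin receptor signalling, among them Jak2, Stat3 and the feedback inhibitor Socs3, none passed in WAT or muscle in any of the 4 comparisons. Their median in muscle was -0.23 in KO_AL and -0.28 in WT_DR against WT_AL, beside -0.05 and -0.06 over all tested entries. Of 11 or 12 tested genes of adiponectin assembly and signalling, 1 passed in WAT or muscle, Camkk2, a kinase that activates AMPK, which rose by 0.58 (SE 0.15) in KO_DR against WT_DR muscle. Camkk2 stood at 1.14 FPKM in KO_DR and 0.763 in WT_DR, so it was tested only because of KO_DR. Of the retinol transport genes, Rbp7, a cellular retinol binding protein, fell in WAT of WT_DR from 37.8 to 9.82 FPKM (-1.94, SE 0.37). Ttr, the blood partner of Rbp4 and also 1 of the 7 liver markers, rose by 5.52 (SE 1.13) in WT_DR muscle. Of the genes of the alternative complement pathway, in which Cfd cleaves factor B, Cfi rose by 6.41 (SE 1.74) in WT_DR muscle and fell by 5.56 (SE 1.28) in KO_DR against WT_DR. Cfi stood at 6.67 FPKM in WT_DR muscle, 0.0783 in WT_AL and 0.142 in KO_DR, so it was tested only because of WT_DR. Ttr and Cfi rose and fell in the contrasts in which all 7 liver markers did, with medians of 6.89 and -4.24, and the part of liver RNA in them was not tested. None of the 9 tested genes of NAD salvage beside Nampt passed in WAT or muscle.

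Several other secreted fat factors fell in the muscle comparisons in which Lep fell. In WT_DR against WT_AL, 5 of 19 tested fell, among them Sfrp5, a secreted Wnt antagonist (-4.01, SE 0.87), Wisp2, a Wnt-induced matrix protein (-3.68, SE 0.70), Thbs2, an antiangiogenic matrix protein (-2.50, SE 0.31), and Sparc (-1.98, SE 0.48). In the group labelled KO_AL, 3 of 20 fell, Sfrp5 by 2.68 (SE 0.77), Wisp2 by 2.51 (SE 0.63) and Thbs2 by 1.85 (SE 0.31), while Lcn2 rose by 5.57 (SE 1.17). The median of the list was -0.29 in WT_DR and -0.01 in KO_AL, near the -0.06 and -0.05 of all tested entries, and most of its genes did not pass. The share of all muscle entries that passed was 1.4% in WT_DR and 0.681% in KO_AL against WT_AL. In WAT, where Lep did not pass, Sfrp5 stood at 304 FPKM in WT_AL (131 to 477), 6.26 in WT_DR (0 to 13.1), 47.7 in KO_AL (23.5 to 71.8) and 52.1 in KO_DR (24.5 to 79.7). Its WT_AL interval lay above the other 3. Sfrp5 fell by 5.60 (SE 0.88) in WT_DR and by 2.67 (SE 0.55) in KO_AL against WT_AL in WAT. Thbs2 fell by 3.28 (SE 0.61) in WT_DR, and Wisp2 by 2.43 (SE 0.50) and Retnla, a relative of resistin, by 2.07 (SE 0.46) in KO_AL. The interaction in muscle passed for Sfrp5 (4.36, SE 1.03), Wisp2 (4.08, SE 1.02) and Thbs2 (2.28, SE 0.48) as it did for Lep.

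**Figure D5:**
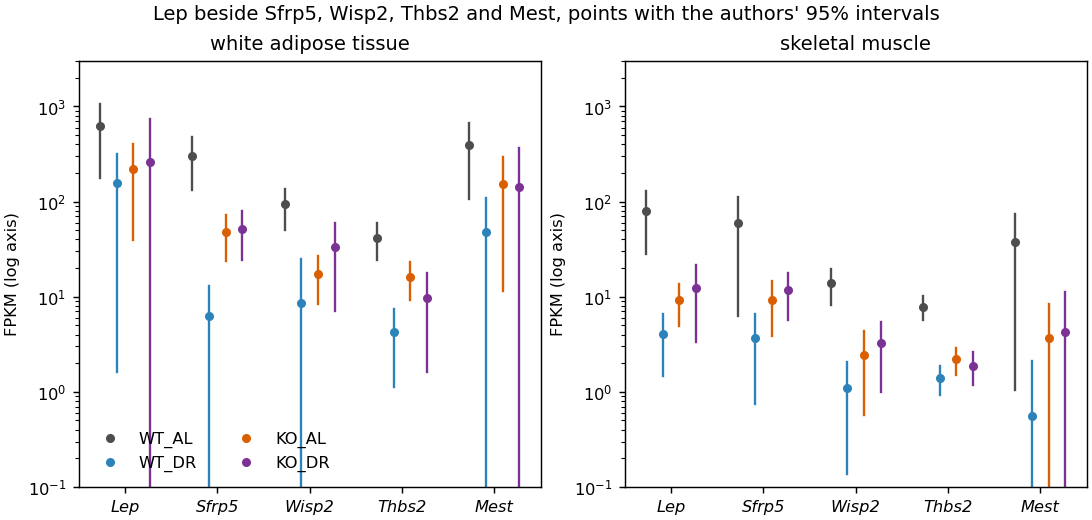
FPKM (log axis) of Lep, Sfrp5, Wisp2, Thbs2 and Mest in WAT (left) and skeletal muscle (right) for the 4 labelled groups, with points at the group value and lines for the authors' 95% interval. All 5 genes were highest in WT_AL in both tissues, at 616 and 78.7 FPKM for Lep, and lowest in WT_DR.

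Over the 8 groups of WAT and muscle, the entries whose log2(FPKM + 1) was most like that of Lep were Ppp1r21 (Pearson r = 0.993), Mest, an imprinted gene linked to fat expansion (0.993), Grap (0.990), H2-Ab1 (0.989) and Tmem123 (0.988), among 11505 entries. Mest stood at 391 FPKM in WT_AL, 47.6 in WT_DR, 152 in KO_AL and 143 in KO_DR in WAT, and at 37.7, 0.563, 3.66 and 4.29 in muscle. Its order from highest to lowest thus began with WT_AL and ended with WT_DR in both tissues, as for Lep. Adipoq ranked 889th with r = 0.908, behind these genes. Over all 16 groups the leading entries were Lox (0.991), Aoc3 (0.988), Emp1 (0.986), Nid1 (0.985) and Tmem45b (0.985) among 14747, and Adipoq ranked 33rd with r = 0.971, Retn 58th with 0.961 and Cfd 167th with 0.933. Lepr was below the 5 FPKM needed for this ranking. These correlations describe 8 and 16 points that share libraries within a group and are spread mainly by tissue.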

How the data were processed

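RNA was polyA-selected and sequenced on an Ion Proton System, which gave 43 libraries of mouse brain, liver, skeletal muscle and WAT. The authors removed adapters with cutadapt 1.5, trimmed low-quality ends with sickle, mapped the reads to GRCm38 with BBmap and ran Cuffdiff 2.2.1 (versions from the submitters' processing notes), and deposited 1 table of group FPKM values with 95% intervals. The authors scaled the libraries by the geometric mean across samples. Replicates were pooled into 1 value per group, so the spread between libraries enters only through those intervals. The labels give WT_DR WAT 2 libraries, while the extraction protocol gives each WT_DR tissue 3.

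From the table, the SD of a group was taken as the distance from the FPKM to the upper bound divided by 2. Groups were compared by a two-sided Wald test of the log2 ratio of FPKM, with the SE from both SDs, and Benjamini-Hochberg adjustment over all tested entries (FPKM above 0 in each group and of at least 1 in one) within a tissue and comparison at an FDR of 10%. Entries numbered 42349, of which 873 join several genes. 1 entry, Cbs, had no usable interval in KO_AL liver and was left out of the tests that use it. The median SD of an entry was 27.2% to 62.3% of its FPKM, depending on the group. Python 3.11.15, numpy 2.4.6, pandas 2.3.3 and scipy 1.17.1 were used. The test was run on simulated data drawn with the SDs that it uses, without the entries whose SD was large beside their FPKM. That run cannot show whether the authors' intervals suit a test of groups of 2 or 3 libraries. The genes named are the 9 members, Irs1, up to 4 passing genes per list and comparison in WAT or muscle by size of change, the markers of each tissue, and the 5 entries most like Lep. Sparc, the smallest of 5 changes in its list, was named beyond that rule after its values were seen, and 1 other gene of that list is not reported here. The members and lists were chosen with earlier results of these data known. Promoter sequences came from RefSeq (GRCm38.p6), in which all 9 members were found.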

Additional observations from a re-analysis of the deposited data

Results flagged for a closer look

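Leptin in skeletal muscle met the rule for an effect that differs between groups. The difference of genotype was -3.09 on the log2 scale (SE 0.58) under ad libitum feeding and 1.62 (SE 0.70) under restriction, and the test of their difference gave 4.71 (SE 0.91), past the FDR of 10%. The values behind it were 78.7 FPKM in WT_AL and 9.24 in KO_AL, and 4.03 in WT_DR and 12.4 in KO_DR. In the same groups the 6 fat markers summed to 941, 872, 307 and 979 FPKM and the 7 liver markers to 20.5, 47.3, 2542 and 107 in that order. Their part in the difference was not tested.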

How the results depend on the processing

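Counts of members that passed were recomputed under 8 alternatives. Dividing each SD by the square root of its libraries raised them from 1 to 2 in KO_AL against WT_AL, from 2 to 5 in WT_DR against WT_AL, from 3 to 5 in KO_DR against WT_DR, from 0 to 1 in KO_DR against KO_AL (Nampt in liver) and from 1 to 4 for the interaction. A pseudocount of 0.1 or of 1 gave 2 for the interaction, with Adipoq in muscle added. Non-overlapping intervals left 7 of the 12 passing differences between WAT and another tissue, a set of alternatives chosen after seeing the data (4 of 6 against muscle, 0 of 2 against liver and 3 of 4 against brain). With a pseudocount of 0.1 or 1, members listed at 0 could be tested, and the count rose from 2 to 5 against liver (Lep, Retn and Cfd added) and from 4 to 7 against brain (Lep, Adipoq and Cfd added). The remaining counts stayed within 1.5 times their main values. Of 1249 single differences recomputed, 1220 kept their direction and their side of the threshold, 19 came to pass, 6 no longer passed and 4 turned in sign, all 4 when centred on the median of all tested entries: Lepr in brain for KO_AL against WT_AL (-0.078), Adipor2 in muscle for WT_DR against WT_AL (0.027), Retn in WAT for the interaction (-0.096) and Nampt in WAT against liver (-0.00187). None of these 4 passed in either form. The median of all tested entries was 0.16 in liver for KO_AL against WT_AL and -0.17 in WAT for WT_DR against WT_AL. No paired analysis was possible because the table holds 1 value per group and none per library, so leaving out a library was not possible either. The interaction has no version with non-overlapping intervals. Precision is limited by 2 or 3 libraries per group, and a low FPKM such as that of Lepr carried an SD of up to 307% of its value.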

Other observations

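Some genes of fatty acid synthesis rose in the comparisons with WT_AL. In WAT, Elovl6, which elongates fatty acids, rose by 4.10 (SE 0.47) in the group labelled KO_AL and by 5.19 (SE 0.80) in WT_DR against WT_AL, and Thrsp rose by 1.79 (SE 0.46) in KO_AL. Acly, which makes the acetyl-CoA for lipid synthesis, rose by 4.28 (SE 1.04) in WT_DR WAT. In each comparison 2 of the 9 tested lipogenic genes passed, all 9 were higher, and the medians were 1.11 and 2.66 beside -0.06 and -0.17 over all tested entries. The share of all WAT entries that passed was 1.29% in KO_AL and 0.57% in WT_DR against WT_AL. In muscle, Elovl6 rose by 1.62 (SE 0.47) in KO_AL and 2.71 (SE 0.41) in WT_DR, and Thrsp by 2.10 (SE 0.42) and 1.95 (SE 0.42). These were the 2 of 9 tested lipogenic genes that passed in muscle. In KO_AL 7 of the 9 were higher, with a median of 0.11 beside -0.05 over all tested entries. In WT_DR 8 were higher, with a median of 1.04 beside -0.06. Of all tested muscle entries, 0.681% passed in KO_AL and 1.4% in WT_DR against WT_AL. The 2 comparisons share WT_AL.

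In WAT of the groups labelled KO, the 8 mammary epithelial markers summed to 86.0 FPKM in KO_AL and 73.2 in KO_DR beside 5.50 in WT_AL and 6.98 in WT_DR. Krt8, a keratin of simple epithelia, stood at 24.9 in KO_AL and 2.57 in WT_AL (3.27, SE 0.65) and Krt18 at 35.3 and 2.54 (3.80, SE 0.71), and both rose. The other markers reached 1 FPKM in neither group or only in KO_AL, so that their number among those tested depends on the filter.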
